A study of Danio rerio with 6 samples.

Results

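Potassium channels are membrane pores that let potassium leave or enter a cell, and they set the resting potential, end action potentials and recycle potassium in epithelia. A pore is built from several subunits. Voltage-gated subunits open when the membrane depolarizes, inward rectifiers of the kcnj family pass current best near the resting potential, two-pore subunits of the kcnk family carry background leak, and calcium-activated subunits of the kcnm and kcnn families couple the pore to intracellular calcium. In fish larvae they act in neurons, muscle, heart, pigment cells and the ionocytes of the skin.

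The members described here are all genes whose symbol begins with kcn, further letters and a digit. They number 105 of the 21392 genes in the deposited matrix, and 99 of the symbols are current in RefSeq. By prefix, 48 were voltage-gated pore subunits (kcna, kcnb, kcnc, kcnd, kcnf, kcng, kcnh, kcnq, kcns and kcnv), 23 were inward rectifiers, 18 were two-pore subunits and 8 were calcium-activated subunits with their sodium-activated relatives (kcnma, kcnmb, kcnn and kcnt). Another 8 were accessory subunits that form no pore (kcnab, kcne and kcnip).

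Zebrafish embryos mutant for mycn, a transcription factor of the Myc family, were set against wild types of strain AB, both at 72 h after fertilization. The labels name the mutant strain only as Mycn mutant and give no allele or zygosity. Ribo-seq, which sequences mRNA fragments protected by ribosomes, covered 2 samples per genotype, while RNA-seq covered 1. The values are translation efficiencies, ratios of footprint abundance to mRNA abundance for each gene in each Ribo-seq library. Whole embryos were dissociated, so all cell types are mixed, fewer cells of a type and less RNA per cell cannot be told apart, and a ratio does not show how much of an mRNA was present.

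Of the 105 members, 78 were above 0 in all 4 libraries and were tested, and 27 (25.7%) were listed at 0 in at least 1 library, against 17.7% of all genes. No potassium channel subunit passed the test between genotypes. At a limma adjusted p under 0.05, 0 of 78 members were higher and 0 lower in mutants, where 0% of the 17601 genes tested were called higher and 0% lower. At an unadjusted limma p under 0.05, 9 members were higher and 9 lower in mutants, together 23.1% of the members. Of all genes tested 11.5% were, with 6.78% higher and 4.71% lower. The 9 lower members became 4 when mutant replicate 2 was left out, and 5 when wild-type replicate 2 was. The fold changes spread to both sides, with a median log2 fold of 0.13 and an SD of 0.77 over members, beside a median of 0.013 and an SD of 0.61 over all genes tested. The members' median was 0.07 when mutant replicate 1 was left out, 0.26 when wild-type replicate 1 was, and 0.03 when wild-type replicate 2 was. The log2 fold was positive in 60.3% of the members, against 51.3% of all genes tested. The members' share was 51.3% without wild-type replicate 2 and 62.8% without wild-type replicate 1. A log2 fold here is the mutant mean minus the wild-type mean of log2(ratio + 0.1), which understates the change of members with low ratios.

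The ratios of these channels are coarse. A value is called repeated here where another gene of its library has it too, to 9 significant digits, as ratios of small whole numbers do. In all, 58 of the 78 members (74.4%) had repeated values in all 4 libraries, against 38.4% of all genes tested. The only member with no such value was kcnn1a. The same is seen between libraries of a genotype. The quotient of mutant replicate 2 over mutant replicate 1 was most often 1.23, in 1300 genes and 13 members, and that of wild-type replicate 2 over wild-type replicate 1 was most often 1.36, in 978 genes and 6 members. Divided by these commonest quotients, 62 members (79.5%) in mutants and 54 (69.2%) in wild type gave a ratio of whole numbers up to 10, within a relative tolerance of 1e-05, against 46.5% and 40.3% of all genes. Where 1 mRNA value divides both libraries of a genotype, it cancels in such a quotient, and the spread between those libraries then holds no error of the mRNA measurement. That error would still enter the log2 fold between genotypes in full. The SEs and p-values given here would not include it and would be too small.

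**Figure D1:**
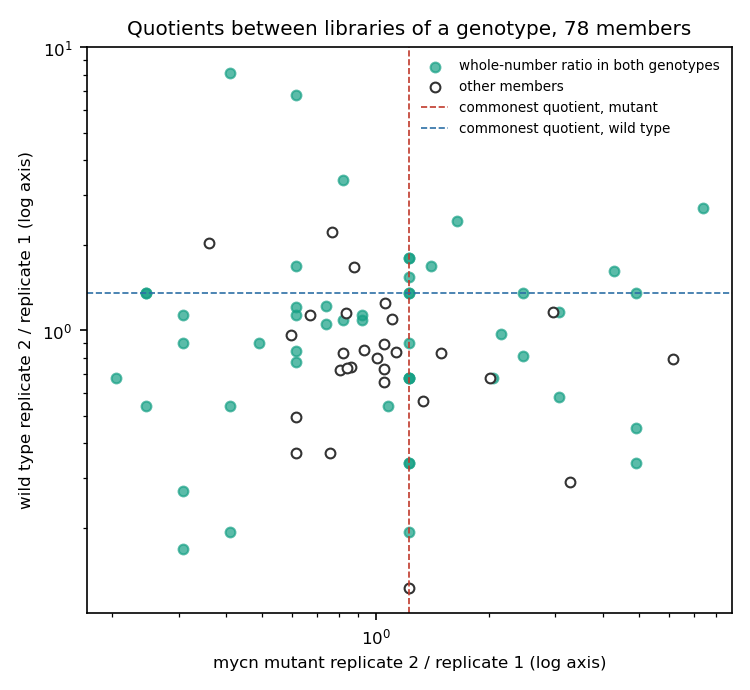
Each point is 1 of the 78 tested members, with the quotient of mutant replicate 2 over replicate 1 on the horizontal axis and that of wild-type replicate 2 over replicate 1 on the vertical axis, both log axes without units. The dashed lines mark the commonest quotients, 1.23 and 1.36. The filled points are 50 members whose quotients, divided by these, were ratios of whole numbers up to 10 in both genotypes. Many points therefore share a column or a row.

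Across these 78 members, which are not independent replicates, the Pearson correlation of log2 values was 0.66 between the mutant libraries and 0.63 between the wild-type libraries, against 0.81 and 0.82 over all genes tested. The median absolute difference between single libraries was 0.50 in mutants and 0.41 in wild type on the log2 scale. The median absolute log2 fold between genotypes, a difference of means of 2 libraries, was 0.51. Means vary less than single libraries, so these sizes are not directly comparable. The share of members whose groups did not overlap was 39.7%, namely 16 higher and 15 lower. Over all genes tested this share was larger, 44.8%, with 23.1% higher and 21.6% lower. Among genes with a repeated value in 3 or 4 libraries, 15.1% had an unadjusted p under 0.05, and of the 72 tested members of this kind 17 (23.6%) did.

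**Figure D2:**
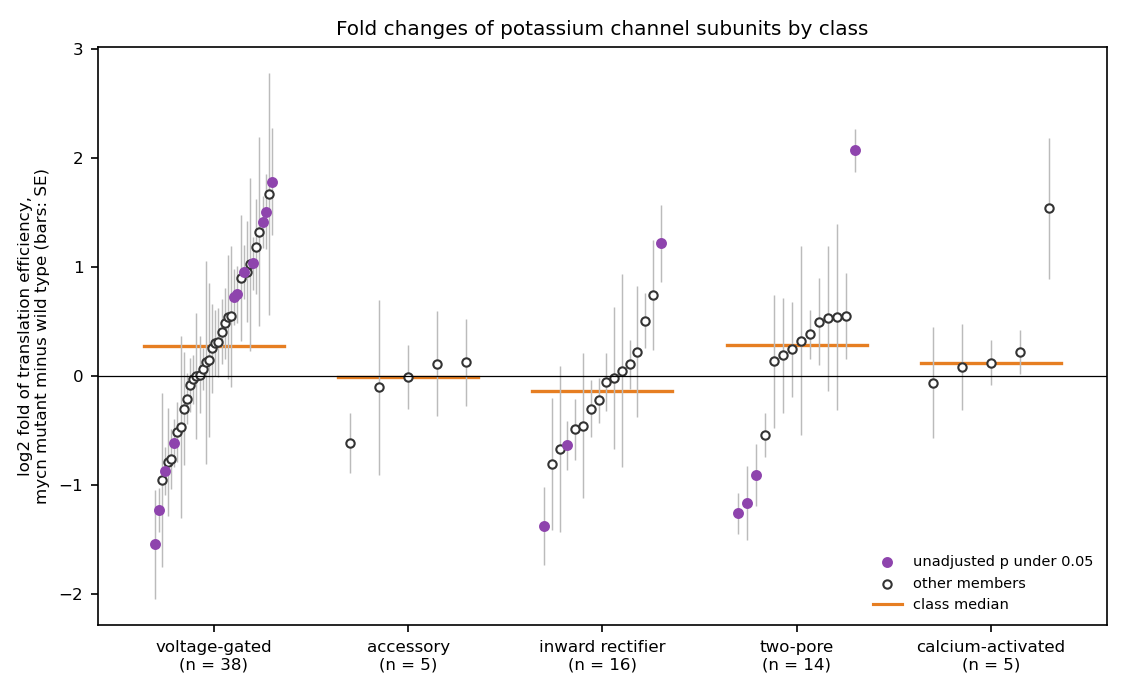
The plot shows the log2 fold of translation efficiency, mutant minus wild type, of each tested member by class, with the SE as bars and the class median as a line. Filled points are the 18 members with an unadjusted p under 0.05, which lie on both sides of 0 in the voltage-gated, inward rectifier and two-pore classes.

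Two-pore subunits held the member with the highest ratio and the lowest p. The ratio of kcnk7, whose human counterpart has not been seen to carry current on its own, was 25.0 and 23.1 in the mutant libraries, against 5.41 and 5.87 in the wild-type libraries. Both mutant values lay above both wild-type values, a log2 fold of 2.07 (limma adjusted p = 0.199, SE 0.195). Its values were repeated in all 4 libraries, and the quotients between libraries came to 3 over 4 of the commonest one in mutants and to 4 over 5 in wild type. These are ratios of small whole numbers, so the high ratio of kcnk7 is coarse. Its small SE does not show that it was well resolved. The adjusted p of kcnk7 ran from 0.0572 with zeros kept in the fit to 0.547 without wild-type replicate 2.

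In the other direction, kcnk6, the TWIK-2 channel, was at 0.447 and 0.471 in mutants, against 1.31 and 1.17 in wild type, a log2 fold of -1.26 (limma adjusted p = 0.253, SE 0.188). The acid-sensitive leak channel kcnk9 was at 0.404 and 0.496 in mutants and at 0.834 and 1.51 in wild type. The stretch-sensitive kcnk2a, a TREK-1 counterpart, was at 0.491 and 0.603 against 0.885 and 1.37. All 3 had both mutant values below both wild-type values. In kcnk9 and kcnk2a the mutant values differed by exactly the commonest quotient. Log2 folds were -1.16 (SE 0.338) for kcnk9 and -0.90 (SE 0.284) for kcnk2a, with limma adjusted p of 0.370 and 0.397.

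The copy kcnk2b did not follow, with 0.910 and 0.280 in mutants and 0.464 and 0.419 in wild type, so that the groups overlapped. The mechanically gated kcnk4a, a TRAAK counterpart, had close and high values in mutants, 4.75 and 4.78 in mutants against 4.04 and 3.24 in wild type, a log2 fold of 0.39 (SE 0.223). The gene kcnk5b, in which mutations enlarge the fins of zebrafish, was at 0.522 and 1.07 in mutants and at 0.608 and 0.413 in wild type, and its groups overlapped. Over the class, 10 of 14 tested members were above 0 in log2 fold and 4 below, with a median of 0.29. This median was -0.32 when mutant replicate 2 was left out and -0.22 when wild-type replicate 2 was, so the direction of the class rests on single libraries.

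Of the voltage-gated subunits, 38 of 48 were tested, 25 with a positive and 13 with a negative log2 fold and a median of 0.28. The median was 0.096 when mutant replicate 1 was left out and 0.097 when wild-type replicate 2 was. Of the Shaker-type kcna genes, which repolarize axons, kcna2b was at 1.98 and 2.63 in mutants, against 0.973 and 0.550 in wild type, a log2 fold of 1.51 (limma adjusted p = 0.321, SE 0.343). Its relative kcna1a, a Kv1.1 counterpart, was at 1.08 and 1.33 against 0.456 and 0.618, a log2 fold of 1.04 (limma adjusted p = 0.327, SE 0.241). Both genes had all mutant values above all wild-type values. In kcna1a the quotient between libraries was the commonest one in both genotypes, so its SE reflects no replicate spread of its own. The other copy, kcna1b, was at 1.02 and 2.20 in mutants and at 1.26 and 1.22 in wild type, with overlapping groups. The related kcna7 lay on the other side, at 0.514 and 0.316 in mutants against 0.584 and 0.660 in wild type. Over the 6 tested kcna genes, 3 had a positive and 3 a negative log2 fold.

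The silent subunit kcng3, which forms no channel alone and joins Kv2 subunits, was at 0.616 and 0.757 in mutants, against 0.165 and 0.224 in wild type, a log2 fold of 1.42 (limma adjusted p = 0.278, SE 0.238). Both mutant values lay above both wild-type values, and both genotypes showed the commonest quotient between libraries. The gap between libraries of a genotype is thus one that many genes share, and the SE of kcng3 reflects no replicate spread of its own. Another silent subunit that joins Kv2, kcnf1a, lay on the other side, at 1.63 and 1.85 in mutants against 2.94 and 2.48 in wild type, a log2 fold of -0.61 (limma adjusted p = 0.428, SE 0.218). The Kv2 pore subunit kcnb2 was at 0.569 and 0.350 in mutants and 0.354 and 0.274 in wild type, and its groups overlapped by a small margin.

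Kv3 subunits of the kcnc family allow neurons to fire fast. Here kcnc2 was at 0.717 and 0.481 in mutants, against 0.296 and 0.335 in wild type, a log2 fold of 0.73 (limma adjusted p = 0.428, SE 0.259). The pair kcnc1a and kcnc1b had log2 folds of -0.08 with SE 0.250 and 1.19 with SE 0.438, and only kcnc1b had groups that did not overlap, with 0.642 and 0.789 in mutants against 0.421 and 0.143 in wild type. The A-type channels of the kcnd family, which inactivate quickly, included the steady kcnd2, at 0.631 and 0.589 in mutants and 0.623 and 0.532 in wild type. Their relative kcnd3 was at 0.343 and 0.281 in mutants against 0.712 and 0.591 in wild type, a log2 fold of -0.87 (limma adjusted p = 0.341, SE 0.217). The third gene, kcnd1, had a wild-type pair of 0.787 and 0.0971, so its libraries differed more than the genotypes.

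Among the kcnh genes, the ether-a-go-go family, kcnh8 was lower in both mutant libraries, at 1.67 and 1.54, against 3.65 and 4.13 in wild type. Its log2 fold was -1.23 (SE 0.206, limma adjusted p = 0.278). The related kcnh3 was at 0.642 and 0.197 in mutants and 1.19 and 1.35 in wild type, a log2 fold of -1.54 (limma adjusted p = 0.400, SE 0.498). The heart's rapid delayed rectifier in zebrafish, kcnh6a, was at 0.927 and 1.14 in mutants against 0.689 and 0.468 in wild type. These mutant values differed by exactly the commonest quotient. The log2 fold of kcnh6a was 0.75 (limma adjusted p = 0.420, SE 0.262). Thus members of this family lay on both sides, with 6 of 10 above 0. The longfin gene kcnh2a was at 1.19 and 3.66 in mutants and at 1.95 and 2.26 in wild type, with a log2 fold of 0.00 (SE 0.576). The widest mutant pair of the family was that of kcnh6b, at 1.79 and 13.2, against 0.885 and 2.40 in wild type.

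The kcnq family gives the slow Kv7 currents of heart, epithelia and neurons, and 6 of its 7 tested genes had a positive log2 fold. For kcnq1.1, a counterpart of the human long-QT gene KCNQ1, the mutant values were 2.50 and 6.15, and the wild-type values 1.19 and 0.967, a log2 fold of 1.78 (limma adjusted p = 0.361, SE 0.491). The mutant libraries were both above the wild-type ones but differed from each other by more than the wild-type values did. The neuronal kcnq5a was at 1.19 and 0.898 in mutants against 0.776 and 0.287 in wild type, a log2 fold of 0.96 (SE 0.466). The median log2 fold of the 7 genes was 0.90.

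**Figure D3:**
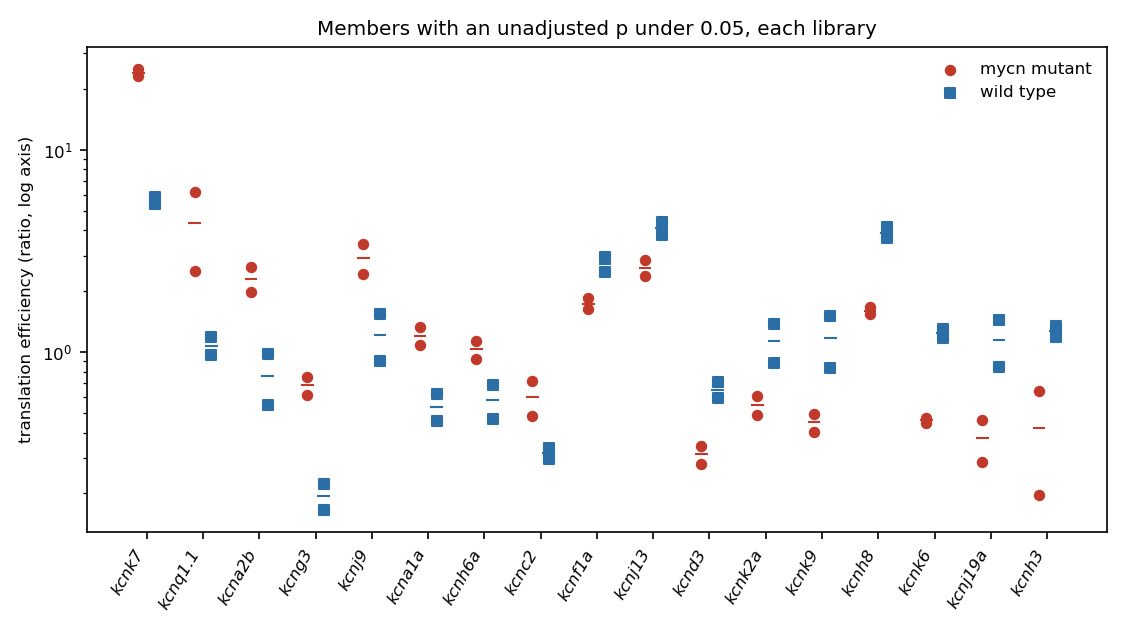
The plot shows the translation efficiency, a ratio on a log axis, of 17 of the 18 members with an unadjusted p under 0.05, with mutant libraries as circles, wild-type libraries as squares and short lines for means of 2 libraries. In kcnk7 both mutant values exceeded 23 and both wild-type values were under 6. The groups do not overlap in any of the 17, which follows largely from choosing members by p.

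Inward rectifiers were the largest class with a negative median, -0.14 over 16 tested of 23 members, with 6 above 0 and 10 below. It was -0.25 when mutant replicate 2 was left out and -0.08 when wild-type replicate 2 was. The potassium channel of pigment cells kcnj13, which zebrafish need for regular stripes, had high ratios of 2.85 and 2.38 in mutants, against 3.81 and 4.39 in wild type. Both mutant values were lower, a log2 fold of -0.63 (limma adjusted p = 0.427, SE 0.224). It was among the better resolved members, with a repeated value in 1 library. In kcnj19a the values were 0.464 and 0.285 in mutants against 0.846 and 1.44 in wild type, a log2 fold of -1.37 (limma adjusted p = 0.349, SE 0.358).

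Its copy kcnj19b had a smaller difference of the same sign, 0.596 and 0.366 against 0.756 and 0.641, and again no overlap. The G-protein-gated subunit kcnj9, a GIRK3 counterpart, was at 2.43 and 3.42 in mutants against 0.906 and 1.54 in wild type, a log2 fold of 1.22 (limma adjusted p = 0.367, SE 0.352). Among its relatives, kcnj3a and kcnj5 had overlapping groups and kcnj3b did not. Their SEs were wide, 0.650 for kcnj3a, 0.607 for kcnj5 and 0.502 for kcnj3b. The strong rectifier kcnj12b, a Kir2.2 counterpart, was at 1.76 and 1.29 in mutants and at 0.932 and 1.14 in wild type.

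Of the ATP-sensitive pore subunits, the Kir6.1 gene kcnj8 was at 0.417 and 0.513 in mutants against 0.584 and 0.528 in wild type, and the Kir6.2 gene kcnj11 at 0.534 and 0.797 against 0.749 and 0.621. The related kcnj11l was more variable, at 0.469 and 0.0962 in mutants against 0.224 and 0.152 in wild type, with a log2 fold of 0.23 (SE 0.603) and overlapping groups. Sulfonylurea receptors are the partners of these pores. The receptor abcc9 was at 0.576 and 0.794 in mutants against 0.527 and 0.590 in wild type, and abcc8 at 0.340 and 0.651 against 0.299 and 0.648. None of these genes passed. The log2 folds were -0.22 (SE 0.206) for kcnj8, -0.05 (SE 0.263) for kcnj11, 0.24 (SE 0.232) for abcc9 and 0.07 (SE 0.456) for abcc8.

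The 6 copies of kcnj1a, relatives of the renal channel ROMK that secretes potassium from fish ionocytes, are consecutive protein-coding genes in RefSeq's assembly GRCz12tu. The sources used here do not say how reads that match several copies were handled, so the values of single copies are uncertain. They were irregular. The first, kcnj1a.1, was at 1.61 and 0.395 in mutants and at 0.993 and 1.35 in wild type, and kcnj1a.3 at 0.205 and 1.01 against 1.22 and 0.550. The copy kcnj1a.4 was at 1.04 and 0.641 against 0.286 and 1.94, and the other 3 copies were listed at 0 in at least 1 library. None of the tested copies had groups apart.

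Of the calcium-activated class, 5 of 8 members were tested, 4 with a positive log2 fold and a median of 0.12, which ran from 0.16 to 0.33 when 1 library was left out. The small-conductance subunit kcnn1a was at 0.399 and 0.439 in mutants against 0.329 and 0.361 in wild type. The mutant values were both higher, by a log2 fold of 0.22 (limma adjusted p = 0.720, SE 0.202). In a fit of the 2626 genes with no repeated value, where 36 genes (1.37%) were called, it had an adjusted p of 0.355. The large-conductance pore kcnma1a was at 0.638 and 0.676 in mutants and 0.530 and 0.664 in wild type, a log2 fold of 0.12 (limma adjusted p = 0.848, SE 0.205). The beta subunit that modulates it, kcnmb2, was at 1.04 and 0.427 in mutants and 0.954 and 0.518 in wild type. The copy kcnn1b was at 1.06 and 1.30 against 0.710 and 0.138, with both mutant values higher and a wild-type pair far apart. Its log2 fold was 1.54 (limma adjusted p = 0.486, SE 0.650), but 2.43 with wild-type replicate 1 left out and 0.66 with wild-type replicate 2 left out. The third small-conductance gene, kcnn3, was at 0.506 and 1.02 against 0.817 and 0.555.

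The accessory subunits had the median nearest to 0, -0.01 over 5 tested of 8 members. It was 0.04 with a pseudocount of 1. With 1 mutant library left out it was -0.03 (replicate 1) and -0.48 (replicate 2), and with 1 wild-type library left out it was -0.13 (replicate 1) and 0.11 (replicate 2). The Kv1 beta subunit kcnab2a was at 1.03 and 1.09 in mutants against 2.06 and 1.35 in wild type, a log2 fold of -0.61 (limma adjusted p = 0.508, SE 0.276), and its groups did not overlap. The fold was -0.32 when wild-type replicate 1 was left out and -0.90 when wild-type replicate 2 was. Its copy kcnab2b was at 0.245 and 1.51 in mutants and 0.784 and 0.621 in wild type, so the mutant libraries enclosed the wild-type ones. The small membrane protein kcne4, which damps voltage-gated pores, was at 0.808 and 1.99 against 1.00 and 1.36, and the Kv4-binding calcium sensor kcnip1b at 0.642 and 0.493 against 0.336 and 0.745. Both had overlapping groups.

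Of the 27 members listed at 0 somewhere, 16 were at 0 in 1 library, 8 in 2 and 3 in 3 libraries. Of them, 3 were at 0 in both libraries of 1 genotype and above 0 in both of the other. The share of all genes with this pattern was not counted. The inward rectifier kcnj16 was listed at 0 in both mutant libraries and at 1.54 and 2.09 in wild type, and kcnj14 at 0 in both mutant libraries and at 0.541 and 0.734 in wild type. In the opposite direction, kcna2a was at 0.379 and 0.466 in mutants and listed at 0 in both wild-type libraries. No fold can be given against 0. When zeros were kept in the fit, kcnj16 was the only member of the 105 under 0.05 (limma adjusted p = 0.0456). In that fit 177 of all 21392 genes were so called, a similar share. The p of kcnj16 depends on the pseudocount that replaces 0. Its mutant values were both 0 and its wild-type values differed by the commonest quotient, so that p reflects no replicate spread of its own. The wild-type values of kcnj14 and the mutant values of kcna2a also differed by the commonest quotient. The largest single value outside kcnk7 was also in this group, 15.4 for kcnk13b in mutant replicate 2, beside 0 in mutant replicate 1 and 2.43 and 0 in wild type. Subunits that were at 0 in at least 1 library included every kcns, kcnt and kcnv gene in the matrix, namely kcns3a, kcnt1, kcnt2, kcnv2a and kcnv2b.

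The file headers name FPKM, a value per length, but the denominator of the ratios is not given, so the order of levels between genes assumes that both parts of each ratio are per length of the same gene. The median ratio over tested members was 0.821 and 0.740 in the mutant libraries and 0.801 and 0.666 in the wild-type libraries, beside 0.779 and 0.779 in mutants and 0.762 and 0.765 in wild type over all genes tested. Mean ratios over 2 were found for 13 members in mutants and for 9 in wild type. In wild type the order ran from kcnk7 (5.64 ± 0.327, SD, n = 2) through kcnj13 (4.10 ± 0.408), kcnh8 (3.89 ± 0.338) and kcnk4a (3.64 ± 0.566) to kcng3 (0.194 ± 0.0416) and kcnj11l (0.188 ± 0.0509). The neighbours kcnj13, kcnh8 and kcnk4a lay within their spread, and so did kcng3 and kcnj11l. In mutants kcnk7 was also first (24.1 ± 1.39), followed by kcnh6b (7.49 ± 8.06) and kcnk4a (4.76 ± 0.0186), whereas kcnh8 ranked 17 of 78. The values of kcnk7, kcnh6b and kcnh8 were repeated in all 4 libraries, so their places in this order are coarse. An SD of 2 libraries holds no mRNA error if both were divided by 1 mRNA value.

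Zebrafish keep many channel genes as a and b copies, and both copies were tested in 15 pairs. In 4 pairs the b copy had the higher ratio in every library, in no pair did the a copy, and in 11 pairs the order changed between libraries. The leak channel kcnk10b ranged from 1.24 to 6.15 and kcnk10a from 0.165 to 0.810. The ranges of these copies did not overlap. For kcnh6 the b copy was also higher in every library, but the ranges overlapped. The genotype folds of the copies had the same sign in 10 pairs and opposite signs in 5. With 15 pairs and 4 libraries, these orders are a description.

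**Figure D4:**
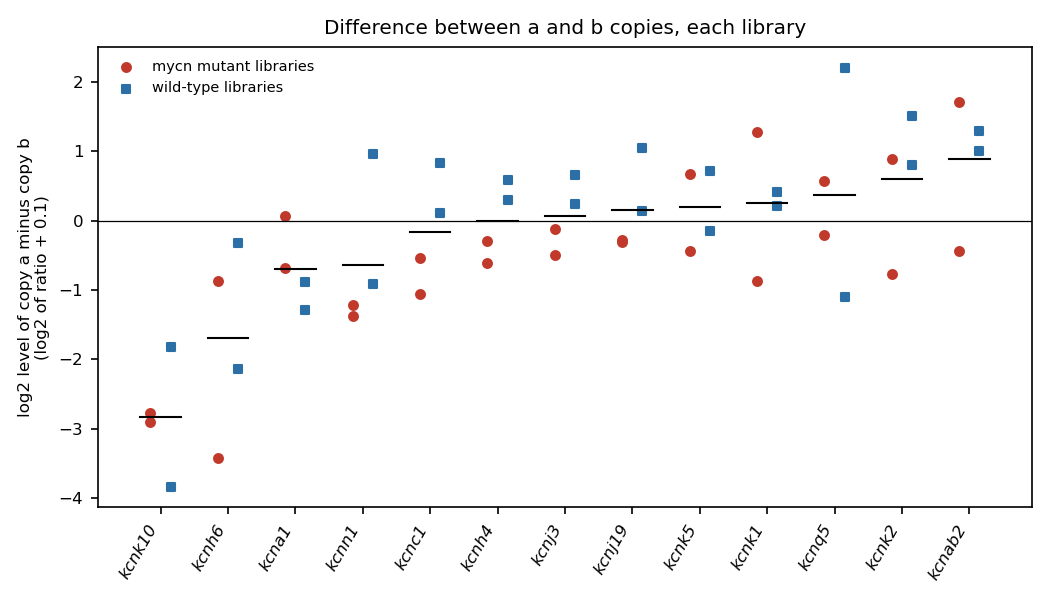
For 13 of the 15 gene pairs the plot gives the log2 level of the a copy minus that of the b copy in each library, mutant libraries as circles and wild-type libraries as squares, with the mean of 4 libraries as a line. The pairs kcnk10 and kcnh6 lie below 0 in all 4 libraries, and the others cross 0.

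Partners of these channels and pumps of the same ions were listed from general knowledge, 46 genes of which 36 were tested. None passed over all genes. The log2 fold was positive in 28 (77.8%) and negative in 8, with a median of 0.11, against 51.3% positive over all genes tested. At an unadjusted limma p under 0.05, 2 partners (5.56%) were higher and 0 lower, against 11.5% of all genes tested in either direction. Of the 36 partners, 11 (30.6%) had no repeated value, against 1 of the 78 channel subunits. The Kv4 partner dpp6a was at 0.729 and 0.822 in mutants against 0.484 and 0.350 in wild type, a log2 fold of 0.77 (limma adjusted p = 0.378, SE 0.229). Its copy dpp6b was at 0.481 and 0.134 in mutants against 0.407 and 0.402 in wild type, with a log2 fold of -0.45 (SE 0.501) and overlapping groups. The sodium-potassium pump subunit atp1b2b was at 0.805 and 0.863 against 0.422 and 0.350, a log2 fold of 0.95 (limma adjusted p = 0.2999, SE 0.197). In dpp6a and atp1b2b the mutant values lay above the wild-type values. The pump subunit atp1b3a, with no repeated value, lay on the other side, at 0.824 and 0.684 in mutants against 1.05 and 1.05 in wild type. Its log2 fold was -0.43 (limma adjusted p = 0.510, SE 0.199). Groups did not overlap in 38.9% of the 36 partners, 11 higher and 3 lower, against 44.8% of all genes tested. The protein that clusters Kv1 channels along myelinated axons, cntnap2a, was at 0.829 and 0.969 in mutants against 0.602 and 0.586 in wild type, a log2 fold of 0.52 (SE 0.193). The pump subunit atp1a3a, abundant in neurons, was at 0.697 and 0.652 against 0.622 and 0.661.

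Because whole embryos were used, markers of the cell types that express these channels were read beside them. Of 8 neuron markers, 6 had a positive log2 fold and 2 a negative one, with a median of 0.15. Of 8 skeletal muscle markers, 2 were positive and 6 negative, with a median of -0.05. Of the 5 tested cardiac markers, 2 were positive and 3 negative, with a median of -0.09. The 5 glial markers also had 2 positive and 3 negative, with a median of -0.10. No marker passed. The median ratio of the neuron markers was 0.582 and 0.537 in the mutant libraries and 0.534 and 0.563 in the wild-type libraries. These are ratios too and do not measure how many cells of a type were present, and the part of cell composition in the channel ratios was not tested.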

How the data were processed

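The authors deposited 1 matrix of ratios, the translation efficiency of each gene in each of 4 Ribo-seq libraries, 2 per genotype. Per the file headers the ratios derive from FPKM values. The submitters' processing notes name the aligner STAR, the counter featureCounts, limma and the build GRCz11, with no versions or roles. The mRNA denominator and any offset are not given in the sources used here. No depth can be read from such ratios, so values carry no counting interval. The labels do not say that replicates came from separate clutches, so the p-values cover only how far these samples spread, which may be technical.

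Genes above 0 in all 4 libraries were fitted together with limma 3.58.1 in R 4.3.3, on log2(ratio + 0.1) with the trend option of its empirical Bayes step. The contrast was mutant minus wild type, two-sided, with 2 residual degrees of freedom, Benjamini-Hochberg adjustment over all 17601 genes and a threshold of 0.05. The steps were tested on data simulated from genes with no repeated value. The simulated spread between libraries was set smaller than that seen over all genes tested. That test does not show how the fit behaves at a wider spread, or for coarse values, which all tested members but kcnn1a have. Genes named by rule were the 4 members per class with the smallest p, members without repeated values, members known from zebrafish work, and members at 0. Other members were added after their values were seen, and all members and lists were chosen with earlier results of these data known. Same-numbered libraries did not deviate together (r = 0.0097), and nothing else pairs them. Alternatives were other pseudocounts, filters and scalings, no trend, a replicate block and leaving out each library over the same genes. RNA-seq values were not analysed here. Some members are not reported here by name.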

Additional observations from a re-analysis of the deposited data

How the results depend on the processing

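No member was called in the main fit or in 12 of the 13 alternatives, and 1 was (kcnj16) when zeros were kept. All genes called numbered 0 in the main fit, 6 with a pseudocount of 1, 177 of 21392 with zeros kept and 36 in the fit of genes without repeated values. In that last fit only 1 member remained to be tested, so members with an unadjusted limma p under 0.05 were 0 in either direction. Leaving out 1 library gave 7 to 10 such members higher and 4 to 7 lower, the fewest lower without replicate 2 of the mutants. The replicate block changed no call, with 0 members and 0 genes called and 10 members higher and 7 lower at an unadjusted p under 0.05.

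Over fits that left out 1 library, the median log2 fold of all members ran from 0.03 to 0.26, with the low end without wild-type replicate 2. It ran from 0.096 to 0.38 for voltage-gated, from -0.48 to 0.11 for accessory, from -0.25 to -0.08 for inward rectifier, from -0.32 to 0.52 for two-pore and from 0.16 to 0.33 for calcium-activated members. The inward rectifier median was -0.30 with zeros kept. Quantile normalization and median centring kept the sign of each class median. Of the 20 genes chosen by p, 15 kept their sign in all alternatives. The sign of 5 turned. For kcnab2b it turned with a pseudocount of 1 (0.056) and, over fits without 1 library, the log2 fold ran from -1.21 to 1.01. In those fits kcne4 ran from -0.48 to 0.72, kcnip1b from -0.35 to 0.61, kcnma1a from -0.014 to 0.26 and kcnn3 from -0.35 to 0.53. With the sign kept, 4 others moved by over 1.5 times when 1 library was left out. These ran from -0.90 to -0.32 for kcnab2a, from 0.30 to 0.72 for kcnj12b, from -1.55 to -0.77 for kcnk9 and from 0.66 to 2.43 for kcnn1b. The cause was not tested.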

Other observations

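Other ion channel families had no calls either, as 0% of the 17601 genes tested were called. Voltage-gated sodium channel subunits of the scn family had a positive log2 fold in 11 of 14 genes, with a median of 0.23. The beta subunit scn4bb was at 43.8 and 15.4 in mutants against 2.33 and 3.45 in wild type (limma adjusted p = 0.2901), with repeated values in all 4 libraries. The sodium pore subunit scn8aa, a counterpart of the Nav1.6 channel, had no repeated value and was at 0.494 and 0.563 against 0.412 and 0.410, a log2 fold of 0.30 (SE 0.193). Of 41 tested calcium channel subunits, 26 had a positive log2 fold, with a median of 0.13, and of 11 chloride channels 8 did, with a median of 0.11. The photoreceptor calcium channel cacna1fa lay on the other side, at 0.252 and 0.207 in mutants against 0.573 and 0.565 in wild type (limma adjusted p = 0.296). Its values were repeated in all 4 libraries. Over all genes tested, 51.3% had a positive log2 fold, with a median of 0.013. Whether the other channel families differ from the potassium channels was not tested.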
